A study of Mus musculus with 12 samples.

Results

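Transcripts of 44 germ cell, meiosis and piRNA genes were followed in mouse pluripotent stem cells grouped by their Tbx3 status. The genes were taken by symbol from a list drawn up with earlier results of these data known. All 44 were found on the array, on 55 probes. Which genes and probes were kept depended on their signal. A gene was kept where, in at least 1 of the 4 groups, each array held it well above background, and the brightest such probe stood for it. This left 40 of the 44, among 17928 genes kept in all. The other 4, Tdrd1, Tdrd6, Sycp2 and Spo11, were well above background on 0 of the 12 arrays. The 4 groups were mouse embryonic stem cells (mESC) labelled Tbx3-high (4 arrays), mESC labelled Tbx3-low (4 arrays), induced pluripotent stem cells (iPSC) labelled Tbx3-null (2 arrays) and iPSC labelled wild type (2 arrays). Tbx3 is a T-box transcription factor of the stem cell network. The sources used here do not give the strain, the number of clones, the way in which high and low cells were told apart or the extent of the null allele. They also do not say that each array had a culture of its own, so p-values may measure technical spread only.

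Germ cells silence transposons with small piRNAs, which PIWI proteins bind and which Tudor-domain proteins help to make and store. In meiosis, cohesin rings and axis proteins shape the chromosomes, the synaptonemal complex zips homologues together, and recombinases repair the breaks made between them. In pluripotent stem cells most of these genes are held low by DNA methylation and by a Polycomb complex that reads E-box and E2F motifs in their promoters, and many are transcribed at some level all the same.

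Levels are log2 of the spot signal minus the 75th percentile of its array, so that 0 is the signal of the 75th-percentile probe, and they are set against each other only within a probe. A change is the log2 difference of 2 group means, with its standard error (SE) from limma, and a gene is said to rise or fall where the p adjusted over all genes tested in the comparison was under 0.05. The 75th percentile of the background-subtracted signal, before scaling, was 314 to 458 in Tbx3-high mESC, 333 to 403 in Tbx3-low mESC, 699.8 to 924 in Tbx3-null iPSC and 922 to 1007 in wild-type iPSC. Spots well above background made up 57.3% to 64.8% in Tbx3-high mESC, 55.9% to 62.3% in Tbx3-low mESC, 62.4% to 63.0% in Tbx3-null iPSC and 68.0% to 68.6% in wild-type iPSC. The part of these signal levels in the results was not tested. The Tbx3 probe read 7.05, 7.07, 7.12 and 7.03 in Tbx3-high mESC, against 5.75, 5.76, 5.73 and 5.72 in Tbx3-low mESC. It read 5.51 and 5.48 in Tbx3-null iPSC, against 4.996 and 5.35 in wild-type iPSC (0.32 ± 0.10, adjusted p = 0.03), so it rose under the null label. As the extent of the allele is unknown here, the probe does not check that label. All mESC arrays lay on one slide and all iPSC arrays on another, and the 2 cell types are not compared directly. On both slides the 2 labels stood in different columns, so column and label cannot be told apart.

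In Tbx3-high mESC, 13 of the 36 genes tested fell (36.1%, against 15.1% of all 15876 genes tested) and 5 rose (13.9%, against 19.4%), while 18 did not pass. The changes were small, with a median of -0.14 beside 0.04 for all genes, and Tdrd7 and Smc1b alone fell at least 2-fold (2 of 36, against 2.7% of all genes). With normexp background correction or the deposited series values, 0 genes did so, and with quantile normalization 3, Sycp1 included. The arrays of the 2 groups did not overlap for 15 genes that were lower and 7 that were higher, against 15.6% and 19.9% of all genes. In Tbx3-null iPSC, 22 of the 39 genes tested fell (56.4%, against 16.5% of all 17762 genes tested) and 4 rose (10.3%, against 21.5%), while 13 did not pass. The median change was -0.52 beside 0.06 for all genes, and 13 genes fell at least 2-fold (33.3%, against 7.52% of all genes). They were 11, without Msh4 and Slc25a31, with normexp, quantile normalization or the series table. With 26 genes lower and 9 higher without overlap, against 30.9% and 40.4% of all genes, non-overlap of 2 against 2 arrays separated the groups for most genes of the array. Nanos2 and Tdrkh in mESC, and Asz1, Tdrd9 and Tdrkh in iPSC, entered a comparison through 1 group only. Without them 13 of 34 fell and 5 rose in mESC, and 21 of 36 fell and 4 rose in iPSC. For Tdrkh in mESC this came from a Tbx3-high spot left out for an outlier mark, and the mESC arrays with a value all held it well above background. At the edge of detection, Piwil1 and Piwil4 were kept through the iPSC arrays, and Asz1 and Tdrd9 through the wild-type iPSC arrays alone. Array signal cannot tell fewer expressing cells from less RNA per cell, and the number of arrays limits the precision.

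**Figure D1:**
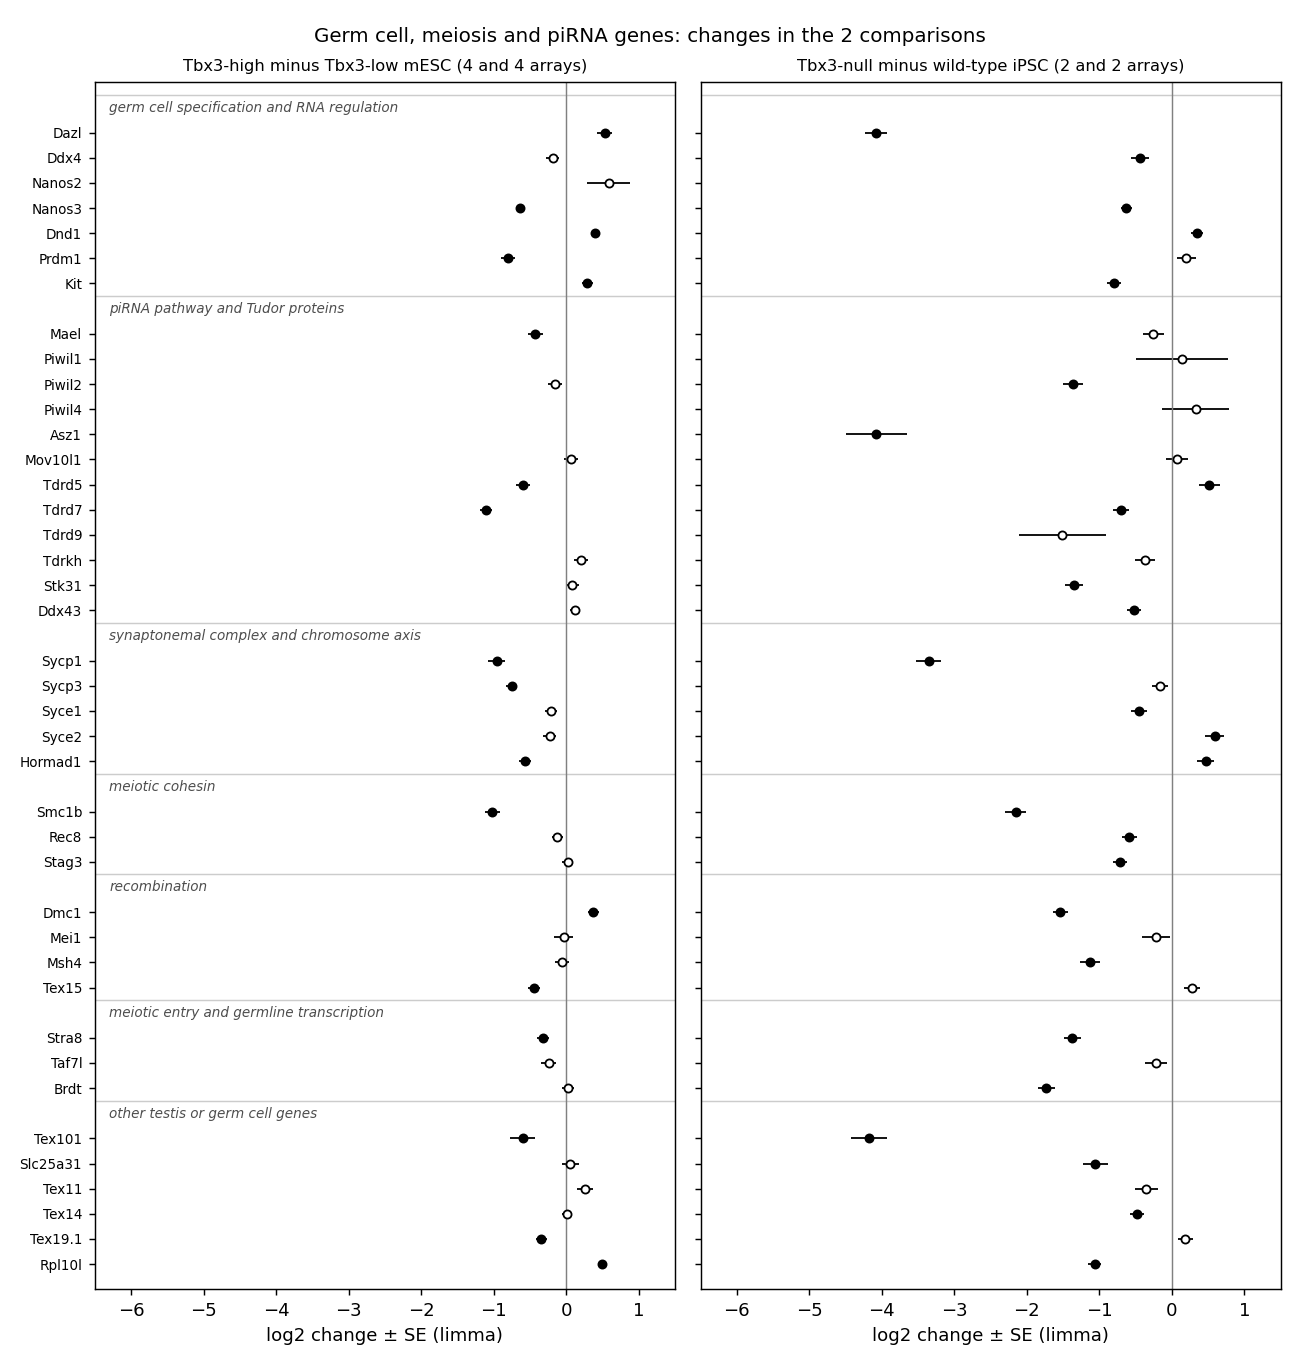
Log2 change with its SE (horizontal axis) for each of the 40 kept genes, grouped by role down the page, in Tbx3-high minus Tbx3-low mESC (left) and Tbx3-null minus wild-type iPSC (right). Filled points passed an adjusted p of 0.05, and a gene without a point was not tested in that comparison. The mESC changes lie between -1.11 and 0.59, while the iPSC changes reach -4.18.

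The promoters of 5 genes are shown here because they span the range of responses described next: Dazl, Sycp1 and Stk31 fell in Tbx3-null iPSC, and Sycp3 and Hormad1 did not. Each line holds the 250 bases before the RefSeq start (GRCm38.p6), 5′ to 3′ on the strand of the gene, and capitals mark the motifs found. The windows are chr17:50293621-50293870 (minus strand) for Dazl, chr3:102936101-102936350 (minus) for Sycp1, chr6:49395289-49395538 (plus) for Stk31, chr10:88459337-88459586 (plus) for Sycp3 and chr3:95559427-95559676 (plus) for Hormad1.
Dazl: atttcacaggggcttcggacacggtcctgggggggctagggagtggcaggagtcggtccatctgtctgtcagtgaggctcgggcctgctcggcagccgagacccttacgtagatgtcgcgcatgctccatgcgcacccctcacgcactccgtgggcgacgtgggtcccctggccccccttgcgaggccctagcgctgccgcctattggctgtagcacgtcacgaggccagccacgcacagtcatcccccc
Sycp1: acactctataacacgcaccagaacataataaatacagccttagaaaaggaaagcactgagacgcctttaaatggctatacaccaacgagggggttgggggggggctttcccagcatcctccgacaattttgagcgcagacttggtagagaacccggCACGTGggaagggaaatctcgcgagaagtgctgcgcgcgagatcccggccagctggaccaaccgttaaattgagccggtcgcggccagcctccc
Stk31: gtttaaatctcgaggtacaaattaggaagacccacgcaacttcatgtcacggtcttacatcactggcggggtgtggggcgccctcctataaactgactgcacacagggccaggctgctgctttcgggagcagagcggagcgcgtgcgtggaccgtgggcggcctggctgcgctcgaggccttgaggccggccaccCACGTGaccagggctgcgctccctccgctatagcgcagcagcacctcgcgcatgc
Sycp3: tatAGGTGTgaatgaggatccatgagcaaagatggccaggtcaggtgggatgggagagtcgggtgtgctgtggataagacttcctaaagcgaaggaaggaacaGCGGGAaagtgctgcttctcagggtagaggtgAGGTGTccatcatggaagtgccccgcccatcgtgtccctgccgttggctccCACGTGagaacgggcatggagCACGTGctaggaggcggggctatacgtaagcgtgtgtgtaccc
Hormad1: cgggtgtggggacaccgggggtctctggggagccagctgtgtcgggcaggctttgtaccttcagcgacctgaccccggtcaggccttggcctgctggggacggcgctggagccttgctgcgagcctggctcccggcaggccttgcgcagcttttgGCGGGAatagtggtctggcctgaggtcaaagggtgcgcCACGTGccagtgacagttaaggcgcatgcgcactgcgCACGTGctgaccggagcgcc
In windows of 300 bases (250 before and 50 after the start), 3 short motifs were searched on both strands. The E-box, spelled CACGTG, reads the same on both strands. The E2F core is spelled TCCCGC in one direction, and its capitals above stand in the other. The T-box core is spelled AGGTGT, and none of the motifs contains another. The Dazl window held none of them. The Sycp1 window had an E-box 94 bases before the start and an E2F core just after it, beyond the bases printed. Stk31 had an E-box 55 bases before its start. The Sycp3 window held 2 E-boxes (64 and 43 bases before the start), an E2F core (147) and 2 T-box cores (247 and 115), and Hormad1 held 2 E-boxes (57 and 20) and an E2F core (95).

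RefSeq windows were found for 38 of the 44 genes, 47 windows in all, since some genes have more than 1 start and such windows can share sequence. An E-box was in 38.3% of them, against 7.15% of all 32851 windows, and an E2F core in 40.4%, against 19.98%. A T-box core, the kind of site a factor such as Tbx3 can bind, was in 12.8%, against 13.7% of all windows. The median ratio of observed to expected CpG was 0.71 in the windows of the list, against 0.38 in all windows. Among genes that fell in Tbx3-null iPSC, 28% of 25 windows held an E-box, against 52.9% of the 17 windows of kept genes that did not fall. The corresponding shares were 44% and 47.1% for the E2F core and 12% and 5.88% for the T-box core. These are counts of letters in a window, with no test made, and say nothing of binding.

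**Figure D2:**
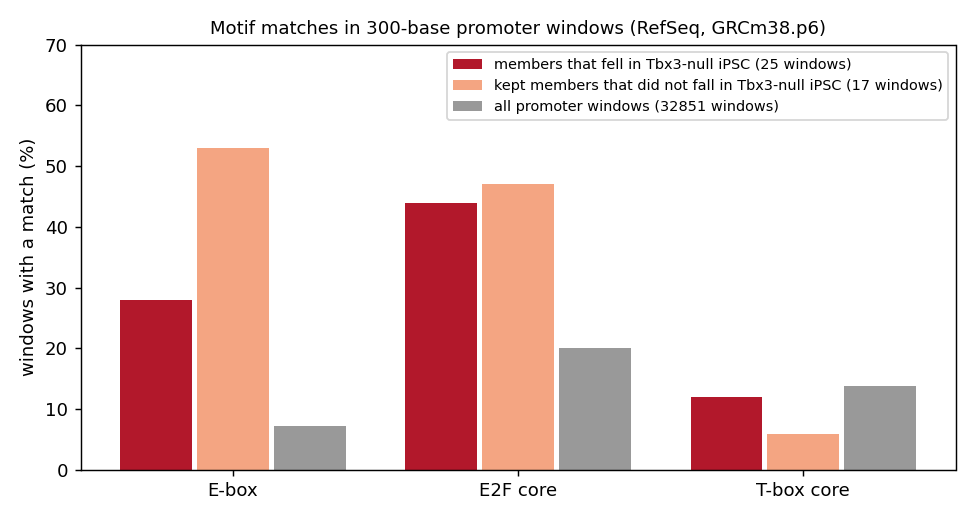
Share of 300-base promoter windows (vertical axis, percent) with at least 1 match to each motif, for genes of the list that fell in Tbx3-null iPSC (25 windows), kept genes that did not fall (17 windows) and all RefSeq windows (32851). The E-box bars stand at 28%, 52.9% and 7.15%, and the T-box bars at 12%, 5.88% and 13.7%.

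Among the 7 genes of germ cell specification and RNA regulation, 3 rose and 2 fell in Tbx3-high mESC, and 1 rose and 4 fell of the 6 tested in Tbx3-null iPSC. Over all genes, 19.4% rose and 15.1% fell in Tbx3-high mESC, and 21.5% rose and 16.5% fell in Tbx3-null iPSC. The role groups hold few genes each, and neither these counts nor those of the groups below were tested against those shares. Dazl, an RNA-binding protein that licenses germ cells for differentiation, moved in opposite directions. In mESC its level was -0.84, -0.84, -0.78 and -0.62 in the Tbx3-high arrays, against -1.46, -1.47, -1.04 and -1.24 in the Tbx3-low arrays. The 2 groups did not overlap, and Dazl rose by 0.53 ± 0.11 (SE, adjusted p = 0.00223) in Tbx3-high cells. In iPSC it read -0.55 and -0.47 in the Tbx3-null arrays, against 3.69 and 3.44 in the wild-type arrays. It was 16.8-fold lower there, a change of -4.07 ± 0.15 (adjusted p = 2.74e-08). Its probe lies at chr17:50418923-50418982 (mm9), as the scanner file places it.

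Nanos3, an RNA-binding protein that keeps primordial germ cells alive, fell by nearly the same amount in both comparisons. Its level was 0.15, 0.19, 0.03 and 0.14 in Tbx3-high mESC, against 0.82, 0.78, 0.74 and 0.69 in Tbx3-low mESC (change -0.63 ± 0.06, adjusted p = 9.96e-06). Tbx3-null iPSC read 1.73 and 1.66, against 2.30 and 2.34 in wild-type iPSC (change -0.62 ± 0.08, adjusted p = 0.000158). Neither pair of groups overlapped. Kit, the receptor for stem cell factor that germ cells need to migrate and survive, rose by 0.29 ± 0.07 in Tbx3-high mESC (adjusted p = 0.00875) and fell by 0.80 ± 0.10 in Tbx3-null iPSC (adjusted p = 0.000152). Prdm1, the repressor that specifies primordial germ cells, fell by 0.80 ± 0.09 in Tbx3-high mESC (adjusted p = 5.07e-05) and changed by 0.20 ± 0.13 in Tbx3-null iPSC without passing (adjusted p = 0.273). Dnd1, which shields germ cell mRNAs from microRNAs, was the gene that rose in both, by 0.41 ± 0.06 in Tbx3-high mESC and 0.35 ± 0.08 in Tbx3-null iPSC (adjusted p = 0.000337 and 0.0073). Its iPSC rise did not pass without Tbx3-null replicate 1 (0.31, adjusted p = 0.0514). Ddx4, the germ cell helicase also called Vasa, fell by 0.44 ± 0.13 in Tbx3-null iPSC (adjusted p = 0.0222), and this call ended without Tbx3-null replicate 1, Tbx3-null replicate 2 or wild-type replicate 2 (adjusted p = 0.0717, 0.0852 and 0.172). Nanos2, a male germ cell regulator, was well above background on 4 Tbx3-high and 3 Tbx3-low arrays and on 0 iPSC arrays, and its mESC change of 0.59 ± 0.30 did not pass (adjusted p = 0.149).

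Of the piRNA and Tudor genes, 12 of 14 were kept. In Tbx3-high mESC 3 of the 8 tested fell and 0 rose. In Tbx3-null iPSC 5 of 12 fell, the dim Asz1 included, and 1 rose. Tdrd7, a Tudor protein of the germ granule, had the greatest fall of the 36 genes in mESC. It read -2.06, -1.93, -1.86 and -1.82 in Tbx3-high mESC, against -0.92, -0.78, -0.70 and -0.85 in Tbx3-low mESC. That is 2.15-fold lower with no overlap (-1.11 ± 0.08, adjusted p = 1.28e-06). In iPSC it was -2.50 and -2.44 in Tbx3-null arrays, against -1.65 and -1.89 in wild-type arrays (-0.70 ± 0.11, adjusted p = 0.000671). Tdrd7 was thus lower in Tbx3-high mESC and also in Tbx3-null iPSC. Asz1, a protein of the piRNA machinery at mitochondria, was well above background on the 2 wild-type iPSC arrays and on 0 of the other arrays. It read -7.78 and -6.22 in Tbx3-null iPSC, against -2.83 and -3.02 in wild-type iPSC. Because the Tbx3-null arrays give only a bound, Asz1 was at least 5.56-fold lower there with the signal used here. Its change was -1.12 with normexp correction and -1.45 with the series table, so that bound does not carry over to them. The adjusted p of 3.25e-05 comes from the limma fit of -4.07, which is not a measured change. Asz1 was kept through the wild-type iPSC arrays alone, where it is high.

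Piwil2, the PIWI protein of fetal and adult germ cells also called Mili, and Stk31, a Tudor-domain kinase-like protein, fell in Tbx3-null iPSC with little change in mESC. Piwil2 read -0.32, -0.27, 0.04 and -0.08 in Tbx3-high mESC, against -0.05, -0.12, 0.13 and 0.05 in Tbx3-low mESC, which overlapped. In Tbx3-null iPSC it was -1.53 and -1.52, against -0.29 and -0.03 in wild-type iPSC, a 2.58-fold fall (-1.37 ± 0.14, adjusted p = 3.22e-05). The Stk31 levels were -0.46, -0.67, -0.35 and -0.45 in Tbx3-high mESC, against -0.72, -0.68, -0.49 and -0.39 in Tbx3-low mESC, again overlapping. Its Tbx3-null iPSC arrays read -1.56 and -1.63, against -0.25 and -0.24 in wild-type iPSC, a 2.54-fold fall (-1.35 ± 0.13, adjusted p = 2.01e-05). The probe of Stk31 lies at chr6:49397301-49397360 (mm9). The mESC changes of Piwil2 and Stk31, -0.16 ± 0.10 and 0.09 ± 0.09, did not pass (adjusted p = 0.236 and 0.499).

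Tdrd5, a Tudor protein needed for retrotransposon silencing in the testis, followed the label in reverse in both systems: it fell by 0.60 ± 0.10 in Tbx3-high mESC (adjusted p = 0.000597) and rose by 0.52 ± 0.14 in Tbx3-null iPSC (adjusted p = 0.0136). The rise ended without Tbx3-null replicate 1 or wild-type replicate 2 (adjusted p = 0.114 and 0.101), and another Tdrd5 probe changed by -0.18 ± 0.39 in iPSC and did not pass in either comparison. Mael, an HMG-box protein of piRNA biogenesis, fell by 0.42 ± 0.10 in Tbx3-high mESC (adjusted p = 0.00861). Ddx43, a helicase of the same pathway, fell by 0.52 ± 0.10 in Tbx3-null iPSC (adjusted p = 0.00168). Tdrd9, a helicase with a Tudor domain, was not well above background in Tbx3-null iPSC, at least 2.07-fold below wild-type iPSC, and did not pass (adjusted p = 0.0722). Of the remaining 4 kept genes of the group, Mov10l1 and Tdrkh passed in neither comparison. Piwil1 and Piwil4 were tested in iPSC only and did not pass there. For Tdrkh the spot of Tbx3-high replicate 2 carried an outlier mark and was left out, so 3 Tbx3-high arrays stand behind its mESC change of 0.21 ± 0.10.

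The 5 kept genes of the synaptonemal complex and chromosome axis fell in mESC in 3 cases and rose in none, and in Tbx3-null iPSC 2 fell and 2 rose. Sycp1, the transverse filament of the synaptonemal complex, fell in both comparisons. It read 0.65, 0.66, 0.72 and 0.76 in Tbx3-high mESC, against 1.50, 1.47, 2.06 and 1.57 in Tbx3-low mESC, a change of -0.95 ± 0.12 without overlap (adjusted p = 8.59e-05). In Tbx3-null iPSC it was -1.11 and -1.32, against 2.09 and 2.19 in wild-type iPSC. This is a 10.2-fold fall (-3.35 ± 0.17, adjusted p = 2.73e-07) at chr3:102622573-102622632 (mm9). Sycp3, a lateral element of the same structure, fell in Tbx3-high mESC and did not pass in Tbx3-null iPSC. Its levels were 1.07, 1.06, 1.20 and 1.17 in Tbx3-high mESC, against 1.83, 1.83, 1.91 and 1.91 in Tbx3-low mESC (-0.75 ± 0.08, adjusted p = 2.14e-05). The Tbx3-null iPSC arrays, at 1.29 and 1.22, overlapped the wild-type arrays, at 1.25 and 1.59 (-0.16 ± 0.11, adjusted p = 0.283). The test of the difference between the 2 changes of Sycp3 passed and is given further on.

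Hormad1, an axis protein that monitors synapsis, fell by 0.57 ± 0.08 in Tbx3-high mESC (adjusted p = 0.000287) and rose by 0.47 ± 0.12 in Tbx3-null iPSC (adjusted p = 0.0099). Its iPSC rise ended without Tbx3-null replicate 1 (0.29, adjusted p = 0.0809) or wild-type replicate 1 (0.37, adjusted p = 0.0848). Syce2, a central element protein, rose by 0.59 ± 0.13 in Tbx3-null iPSC (adjusted p = 0.005), and by 0.37 without Tbx3-null replicate 1 (adjusted p = 0.0319). Its neighbour in the central element, Syce1, fell by 0.45 ± 0.11 (adjusted p = 0.00857), a call that ended without Tbx3-null replicate 2 or wild-type replicate 2 (adjusted p = 0.07 and 0.0644). All 4 rises in Tbx3-null iPSC, those of Dnd1, Tdrd5, Syce2 and Hormad1, missed the threshold when the iPSC arrays were fitted without the mESC arrays (adjusted p = 0.0741, 0.0567, 0.0521 and 0.0863). In that fit 21 genes fell, 20 of them as in the main fit and Tdrd9 besides. Of these, Tdrd9 and Asz1 were well above background on 0 Tbx3-null arrays. The falls of Ddx4 and Syce1 missed the threshold in that fit (adjusted p = 0.0746 and 0.0631).

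All 3 meiotic cohesin genes fell in Tbx3-null iPSC, and 1 of them also fell in Tbx3-high mESC. Smc1b, the meiotic form of an SMC arm of the ring, read 0.36, 0.34, 0.45 and 0.41 in Tbx3-high mESC, against 1.25, 1.38, 1.52 and 1.48 in Tbx3-low mESC. Its Tbx3-null iPSC arrays were at -0.0021 and -0.24, against 2.25 and 1.82 in wild-type iPSC. Both comparisons separated without overlap, with a 2.02-fold fall in mESC (-1.02 ± 0.10, adjusted p = 1.42e-05) and a 4.45-fold fall in iPSC (-2.15 ± 0.14, adjusted p = 1.64e-06). Rec8 and Stag3, the other meiotic subunits of the ring, fell by 0.58 ± 0.10 and 0.72 ± 0.10 in Tbx3-null iPSC (adjusted p = 0.00137 and 0.000271). Their mESC changes, -0.12 ± 0.07 and 0.02 ± 0.07, did not pass.

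Of the 5 recombination genes 4 were kept, and 1 rose and 1 fell in Tbx3-high mESC, while 2 fell in Tbx3-null iPSC. Dmc1, the meiotic recombinase, read 0.68, 0.60, 0.56 and 0.58 in Tbx3-high mESC, against 0.26, 0.22, 0.14 and 0.29 in Tbx3-low mESC (0.38 ± 0.08, adjusted p = 0.0025). Tbx3-null iPSC had -1.81 and -2.02, against -0.24 and -0.51 in wild-type iPSC, 2.90-fold lower (-1.54 ± 0.11, adjusted p = 2.1e-06). The 2 directions were opposite, and all 3 Dmc1 probes gave them. Msh4, which stabilises crossover intermediates, was at -3.56, -3.22, -3.56 and -3.59 in Tbx3-high mESC, against -3.52, -3.37, -3.49 and -3.31 in Tbx3-low mESC, with overlap. In Tbx3-null iPSC it was -4.69 and -4.91, against -3.64 and -3.70 in wild-type iPSC (-1.13 ± 0.13, adjusted p = 9.82e-05), and the change was -0.34 with normexp. A second Msh4 probe disagreed, with -0.82 ± 0.22 in mESC (adjusted p = 0.0172 over all probes) and -0.40 ± 0.32 in iPSC (adjusted p = 0.419 over all probes). Tex15, which helps load recombinases, read -0.34, -0.57, -0.20 and -0.24 in Tbx3-high mESC, against 0.06, 0.09, 0.15 and 0.12 in Tbx3-low mESC (-0.44 ± 0.08, adjusted p = 0.00123). Its iPSC levels of -0.10 and -0.16 in Tbx3-null arrays, against -0.39 and -0.42 in wild-type arrays, gave a change that did not pass (0.28 ± 0.11, adjusted p = 0.0754). Mei1, required for meiotic break formation, passed in neither comparison.

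Stra8, the retinoic acid target that starts meiosis, fell in both comparisons. It read 1.43, 1.59, 1.62 and 1.61 in Tbx3-high mESC, against 2.07, 1.90, 1.80 and 1.73 in Tbx3-low mESC, a small change without overlap (-0.31 ± 0.08, adjusted p = 0.0117). In Tbx3-null iPSC it was 4.25 and 4.36, against 5.71 and 5.65 in wild-type iPSC, 2.59-fold lower (-1.37 ± 0.12, adjusted p = 8.46e-06). Brdt, the testis bromodomain protein, overlapped in mESC, with -0.80, -0.61, -0.70 and -0.60 in the Tbx3-high arrays, against -0.63, -0.76, -0.80 and -0.60 in the Tbx3-low arrays. Its Tbx3-null iPSC levels of -1.79 and -1.52 lay below the wild-type levels of -0.02 and 0.16, 3.32-fold lower (-1.73 ± 0.12, adjusted p = 2.05e-06). A second Brdt probe also fell there (adjusted p = 5.09e-08 over all probes), and its fitted change of -6.71 is no bound because its Tbx3-null arrays were not well above background. Taf7l, a germ cell form of a general transcription factor subunit, passed in neither comparison.

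The last group holds 6 other testis or germ cell genes, of which 4 fell and 0 rose in Tbx3-null iPSC. Tex101, a surface protein of germ cells, had the greatest fall there among the 36 genes well above background on all 4 iPSC arrays. It was at -3.11 and -2.38 in Tbx3-null iPSC, against 1.21 and 1.66 in wild-type iPSC, 18.1-fold lower (-4.18 ± 0.25, adjusted p = 7.84e-07, probe at chr7:25453040-25453099, mm9). In mESC it read -1.65, -1.55, -1.87 and -1.68 in the Tbx3-high arrays, against -1.30, -1.32, -0.86 and -0.89 in the Tbx3-low arrays (-0.60 ± 0.17, adjusted p = 0.0196). The mESC fall ended without Tbx3-low replicate 3, Tbx3-low replicate 4 or Tbx3-high replicate 3 (adjusted p = 0.0584, 0.0545 and 0.0531), and it was -0.29 in slide row 1 and -0.90 in slide row 2. Rpl10l, a ribosomal protein retrogene used in male meiosis, was at 3.57, 3.54, 3.55 and 3.46 in Tbx3-high mESC, against 2.96, 2.93, 3.12 and 3.09 in Tbx3-low mESC (0.50 ± 0.07, adjusted p = 0.000117). It was at 5.46 and 5.57 in Tbx3-null iPSC, against 6.54 and 6.62 in wild-type iPSC, 2.09-fold lower (-1.06 ± 0.09, adjusted p = 8.5e-06). Rpl10l moved up along one comparison and down along the other, as its second probe did, and whether its probes also read its parent gene Rpl10 was not tested. Slc25a31, the testis form of the mitochondrial ADP/ATP carrier, read -3.31, -3.61, -3.27 and -3.49 in Tbx3-high mESC, against -3.77, -3.23, -3.53 and -3.40 in Tbx3-low mESC, overlapping. In Tbx3-null iPSC it was -3.68 and -3.86, against -2.74 and -2.70 in wild-type iPSC (-1.05 ± 0.17, adjusted p = 0.000685). Tex14, a protein of germ cell bridges, fell by 0.48 ± 0.10 in Tbx3-null iPSC (adjusted p = 0.0031), and Tex19.1, a transposon regulator of germ and stem cells, fell by 0.34 ± 0.07 in Tbx3-high mESC (adjusted p = 0.00373). The X-linked crossover gene Tex11 passed in neither comparison, although a second Tex11 probe, not well above background in Tbx3-null iPSC, fell there (adjusted p = 0.00586 over all probes).

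**Figure D3:**
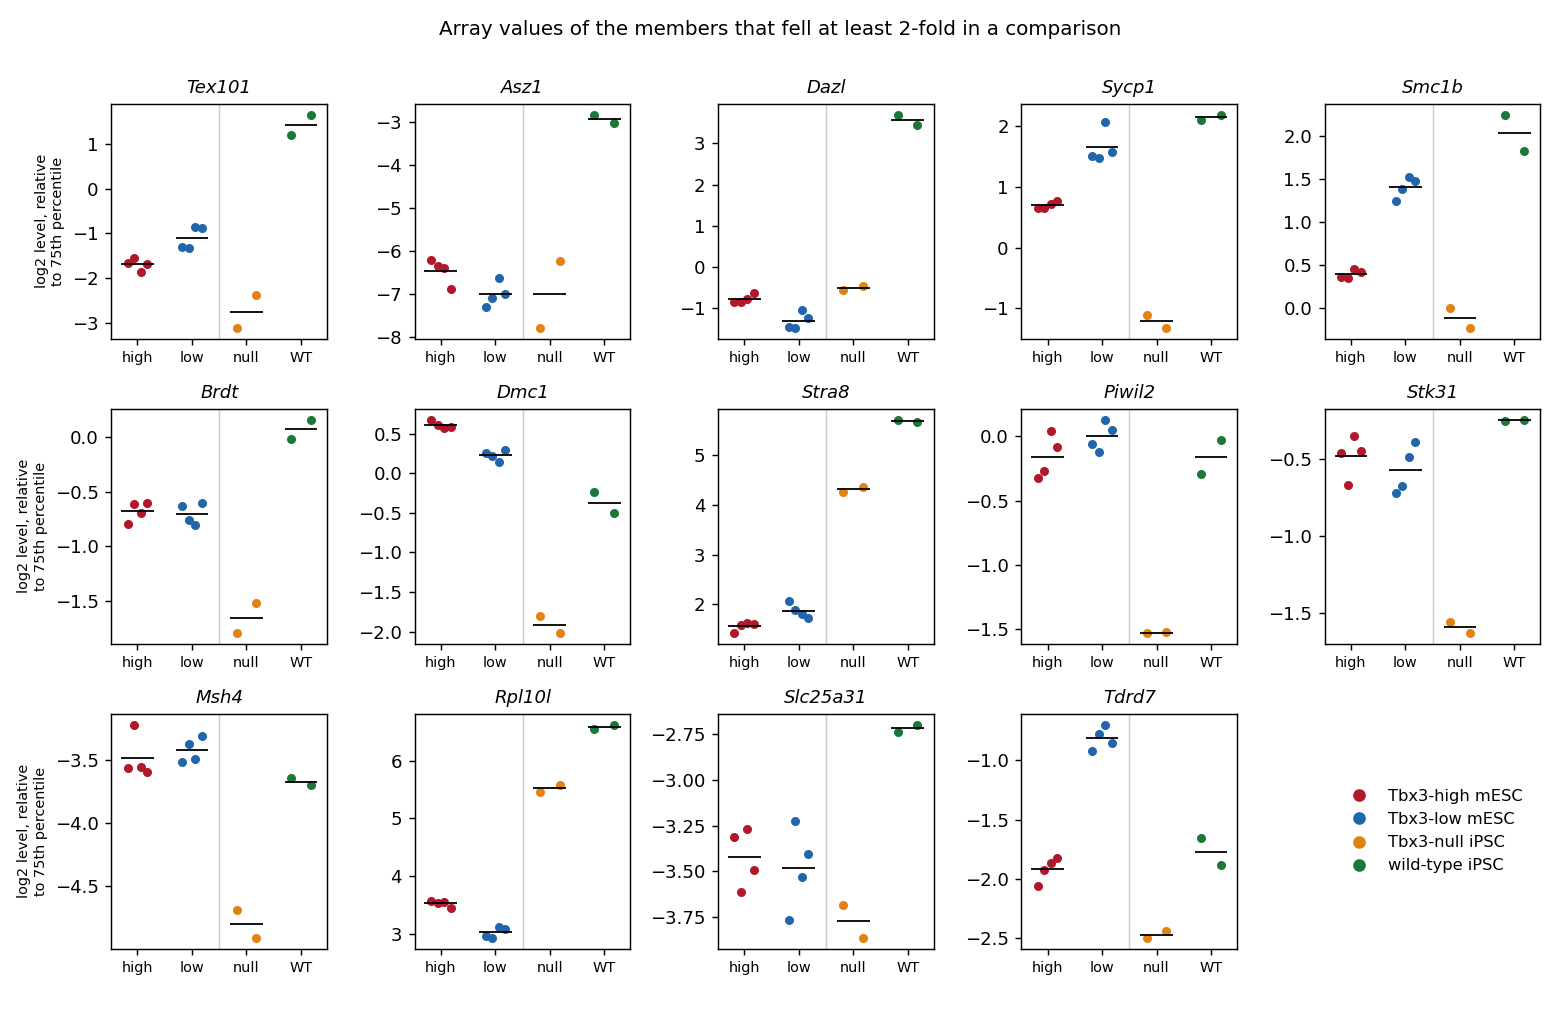
Log2 level relative to the 75th percentile of the array (vertical axis, one scale per gene) on each of the 12 arrays, for the 14 genes that fell at least 2-fold in a comparison, with bars at group means. Points are Tbx3-high and Tbx3-low mESC (left of the line) and Tbx3-null and wild-type iPSC (right of it). In each panel both Tbx3-null arrays lie below both wild-type arrays, and for Asz1 the mESC and Tbx3-null arrays were not well above background.

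Slide row served as a batch in mESC, since each of the 2 rows held 2 arrays of each label. Each of the 18 genes that passed kept its sign within both rows, and 14 of them passed in row 1 alone and 13 in row 2 alone. Kit, Mael and Dmc1 passed in neither row alone, with changes of 0.29 and 0.30, -0.38 and -0.46, and 0.40 and 0.35 in rows 1 and 2. Stra8 changed by -0.48 in row 1 and -0.15 in row 2, where it did not pass. In the iPSC all arrays lay in one row, so no such check was possible there.

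The 2 changes were then set against each other with a contrast that takes (Tbx3-high minus Tbx3-low) minus (wild type minus Tbx3-null). It is 0 where a gene moves equally along the Tbx3 label. For the Tbx3 probe itself it was 1.65 ± 0.13 (adjusted p = 8.56e-06), so the 2 label steps were not alike on that probe. The contrast was lower for 25 of the 40 genes (62.5%, against 13.9% of all 17928 genes) and higher for 1, Dnd1 (against 19.3%). Among the 35 genes tested in both comparisons it was lower for 24 (68.6%, against 14% of 15710 genes) and higher for Dnd1 (2.86%, against 21.5%). A lower value means that the level in wild-type over Tbx3-null iPSC exceeded what the mESC change along the label would give. Tdrd5 and Hormad1 changed by near equal amounts along the label, with differences of -0.08 ± 0.17 and -0.10 ± 0.14 that did not pass (adjusted p = 0.771 and 0.652). The 6 genes that fell in both comparisons, Nanos3, Tdrd7, Sycp1, Smc1b, Stra8 and Tex101, had differences between -1.26 and -4.77. The 4 genes that rose in Tbx3-high mESC and fell in Tbx3-null iPSC, Dazl, Kit, Dmc1 and Rpl10l, moved the same way along the label but by unequal amounts, with differences of -3.54, -0.50, -1.16 and -0.56. The 11 genes that fell in Tbx3-null iPSC and did not pass in mESC all passed the contrast, with differences between -0.40 for Ddx43 and -1.71 for Brdt. Sycp3, Mael and Prdm1, which fell in mESC without passing in iPSC, had differences of -0.91 ± 0.13, -0.67 ± 0.18 and -0.60 ± 0.16. Tex15 and Tex19.1 also fell in mESC without passing in iPSC, and their differences of -0.16 ± 0.14 and -0.15 ± 0.12 did not pass (adjusted p = 0.408 and 0.399). Asz1, the other gene counted as lower, was not above background in 3 of the 4 groups, so its fitted difference of -3.53 is not a measured one. It was -2.46 once signals were floored at the weakest detected signal of each array. Over the 35 genes tested in both comparisons, the change in Tbx3-high mESC and the change in wild-type over Tbx3-null iPSC had a Pearson r of 0.0101 and a Spearman rho of 0.162. This is a description across genes of the same arrays and carries no p.

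**Figure D4:**
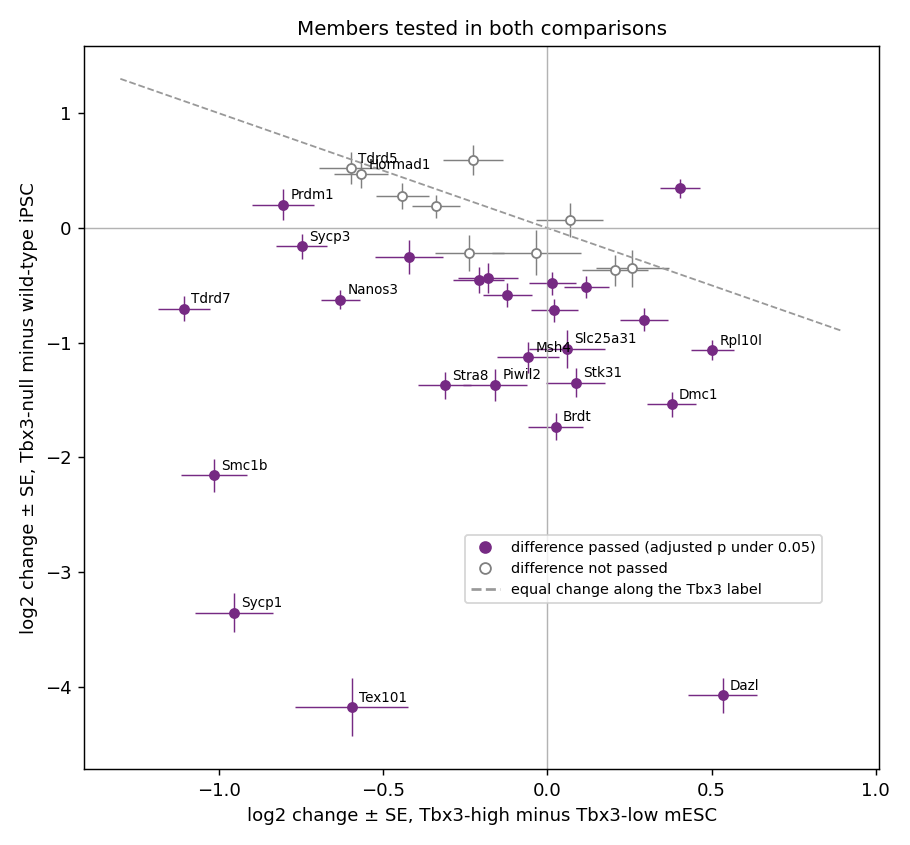
Log2 change ± SE in Tbx3-high minus Tbx3-low mESC (horizontal axis) against that in Tbx3-null minus wild-type iPSC (vertical axis) for the 35 genes tested in both. Filled points passed the contrast of the 2 changes, and the dashed diagonal marks equal change along the Tbx3 label. Tdrd5 and Hormad1 lie on it, and Dazl, Tex101, Sycp1 and Smc1b lie far below it.

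Other genes of the same pathways, taken from lists of symbols, were read in the same fit. Of 20 more meiosis genes 18 were kept. In Tbx3-high mESC 6 of 16 rose (37.5%, against 19.4% of all genes) and 3 fell (18.8%, against 15.1%), with a median change of 0.11. In Tbx3-null iPSC 2 of 18 rose (11.1%, against 21.5%) and 9 fell (50%, against 16.5%), with a median of -0.45. Of the 9, Terb1 and Ccna1 were well above background on 0 Tbx3-null arrays and Tex12 on 1, and 6 of 15 fell without them. The axis gene Hormad2 (-1.79 ± 0.13), the central element genes Tex12 (-1.74 ± 0.14) and Syce3 (-1.06 ± 0.13) and the hotspot methyltransferase Prdm9 (-1.26 ± 0.18) fell at least 2-fold in Tbx3-null iPSC. Meiob, a recombination factor, fell 2-fold in Tbx3-high mESC (-1.04 ± 0.14). Of 10 more piRNA genes, 2 of 9 rose and 2 fell in Tbx3-high mESC (22.2% each, against 19.4% and 15.1% of all genes). In Tbx3-null iPSC 1 of 10 rose and 5 fell (10% and 50%, against 21.5% and 16.5%). Rnf17, a Tudor protein of the testis, changed by 0.36 ± 0.08 in Tbx3-high mESC and -3.87 ± 0.11 in Tbx3-null iPSC (adjusted p = 0.0037 and 3.3e-09). Fkbp6 (-1.36 ± 0.14) and Gpat2 (-1.11 ± 0.13), both of piRNA biogenesis, fell in Tbx3-null iPSC, and Tdrd12 fell in Tbx3-high mESC (-1.19 ± 0.06).

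Among 28 genes linked to the repression or demethylation of germline promoters in stem cells, 5 rose and 6 fell in Tbx3-high mESC (17.9% and 21.4%, against 19.4% and 15.1% of all genes). In Tbx3-null iPSC 9 rose and 3 fell (32.1% and 10.71%, against 21.5% and 16.5%). The de novo methyltransferase gene Dnmt3b fell by 0.35 ± 0.08 in Tbx3-high mESC and rose by 1.13 ± 0.12 in Tbx3-null iPSC, and its cofactor Dnmt3l rose in both, by 0.35 ± 0.08 and 1.08 ± 0.11. L3mbtl2 and Pcgf6, subunits of the germline-repressing Polycomb complex, fell by 0.30 ± 0.07 and 0.37 ± 0.09 in Tbx3-high mESC and rose by 0.63 ± 0.10 and 0.52 ± 0.13 in Tbx3-null iPSC. Other subunits moved otherwise: Rnf2 and Wdr5 rose by 0.32 ± 0.09 and 0.27 ± 0.08 in Tbx3-high mESC and fell by 0.42 ± 0.13 and 0.36 ± 0.11 in Tbx3-null iPSC, and Ring1 rose in both, by 0.55 ± 0.10 and 0.53 ± 0.15. Mga and Max, the partners of that complex that bind the E-box, passed in neither comparison, and E2f6 fell by 0.28 ± 0.07 in Tbx3-high mESC. The part of these genes in the results was not tested.

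Markers of pluripotent stem cells were detected in all 4 groups, with 10 of 10 well above background on every array. Their summed level, as log2 of the summed signal relative to the 75th percentile, was 9.21 to 9.42 in Tbx3-high mESC, 9.14 to 9.34 in Tbx3-low mESC, 9.41 to 9.46 in Tbx3-null iPSC and 9.28 to 9.34 in wild-type iPSC. In Tbx3-high mESC 3 of 10 rose (30%, against 19.4% of all genes), namely Esrrb (0.50 ± 0.07), Zfp42 (0.46 ± 0.07) and Tdgf1 (0.25 ± 0.05). Utf1 fell there (-0.29 ± 0.08), 1 of 10 against 15.1%. In Tbx3-null iPSC Fut4 rose (0.65 ± 0.19), 1 of 10 against 21.5%, and 0 fell, against 16.5%. Of 9 kept markers of feeder fibroblasts, 3 of 6 rose in Tbx3-high mESC (50%, against 19.4% of all genes) and the other 3 did not pass. In Tbx3-null iPSC the same 3 fell (33.3%, against 16.5%), Lum rose (11.1%, against 21.5%) and 5 of 9 did not pass. Among markers well above background on every array of both groups, 2 of 5 rose in mESC, and 2 of 5 fell and 0 rose in iPSC. Lum was above background in the Tbx3-null arrays alone of the iPSC (at least 1.51-fold higher there), and Pdgfra in the wild-type arrays alone (at least 2.22-fold lower in Tbx3-null iPSC). The 3 were Pdgfra, Col1a1 and Pdgfrb, and Col1a1 changed by 1.54 ± 0.10 and -2.32 ± 0.15 and Pdgfrb by 1.83 ± 0.10 and -2.22 ± 0.14. The summed level of the 10 markers on the array was 1.70 to 4.81 in Tbx3-high mESC, 1.39 to 1.50 in Tbx3-low mESC, 0.16 to 0.27 in Tbx3-null iPSC and 1.25 to 1.31 in wild-type iPSC. The high end in mESC came from Thy1 on Tbx3-high replicate 2. Of these 10, the number well above background on 0 arrays of a group was 3 in Tbx3-high mESC, 2 in Tbx3-low mESC, 3 in Tbx3-null iPSC and 2 in wild-type iPSC. Of 6 primordial germ cell markers, Nanos3 from the list above included, 1 rose and 5 fell in Tbx3-high mESC (16.7% and 83.3%, against 19.4% and 15.1% of all genes). In Tbx3-null iPSC 2 rose and 2 fell (33.3% each, against 21.5% and 16.5%). Dppa3 (-3.21 ± 0.08 and 3.38 ± 0.12) and Tfap2c (-1.40 ± 0.08 and 0.47 ± 0.12) moved opposite to Dazl in both. Alpl (0.40 ± 0.12 and -0.60 ± 0.17) moved as Dazl did, and Nanos3 fell in both. Prdm14 and Ifitm3 fell in mESC and did not pass in iPSC. None of the 4 kept spermatid markers passed in a comparison, and Tnp2 was tested in iPSC only. Of 4 kept Sertoli and granulosa cell markers, 2 fell in Tbx3-high mESC (50%, against 15.1% of all genes). The same 2 rose in Tbx3-null iPSC (50%, against 21.5%), namely Wt1 (-1.70 ± 0.16 and 3.23 ± 0.23) and Dmrt1 (-1.36 ± 0.08 and 0.81 ± 0.11). The part of any of these cell types in the changes of the germ cell genes was not tested.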

How the data were processed

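RNA of 12 samples was measured on 1-colour Agilent arrays, 1 per sample; per the labels' protocols, total RNA was labelled with Cy3. Spot intensity came from Agilent Feature Extraction 10.7.3.1, per the file headers, which subtracted background, left arrays unscaled and used mm9 for the probe positions. The deposited series table holds log2 values (medians 6.61 in mESC, 6.58 to 6.59 in iPSC) whose lowest correlation with log2 raw spot means was 0.99885; its scaling and background treatment stay unknown, and it served as an alternative.

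Spots with an outlier mark were set to missing, spots of a probe averaged, and log2 processed signal was set relative to the 75th percentile of the array. A group well above background on 0 of its arrays gives a bound, written "at least", against the lowest detected signal of each array. One limma fit (version 3.58.1, R 4.3.3) held all 12 arrays and 4 group means, with 8 residual degrees of freedom and Benjamini-Hochberg adjustment over all genes tested, after a check on simulated data. Probe names came from RefSeq (27656 probes by accession, 3401 by symbol, 307 by synonym), and promoters from RefSeq (GRCm38.p6). The genes and lists were chosen with earlier results of these data known. Values on every array are given for genes that passed with at least a 2-fold change and for the smallest adjusted p per role and comparison. Alternatives were quantile normalization, normexp correction (offset 50), the series table, no filter on dim probes, the iPSC or mESC arrays alone, a replicate block, slide row as a block and each row alone, the mean of a gene's probes, array weights and leaving out each array. Python 3.11.15, pandas 2.3.3 and matplotlib 3.10.9 were used for tabulation and drawing.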

Additional observations from a re-analysis of the deposited data

Results flagged for a closer look

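On 3 of 71 groups of 4 arrays, 1 array stood apart from the other 3, where chance alone sets about 1 in 20 groups apart. Sycp1 read 2.06 on Tbx3-low mESC replicate 3, with the others of that group between 1.47 and 1.57. Msh4 read -3.22 on Tbx3-high mESC replicate 2, with the others between -3.59 and -3.56. Stra8 read 1.43 on Tbx3-high mESC replicate 1, with the others between 1.59 and 1.62.

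For 25 genes the change along the Tbx3 label differed between mESC and iPSC by the test of the difference itself, (Tbx3-high minus Tbx3-low) minus (wild type minus Tbx3-null). The difference was -4.77 for Tex101, -4.31 for Sycp1, -3.54 for Dazl and -3.17 for Smc1b. It was -1.81 for Tdrd7, -1.71 for Brdt, -1.69 for Stra8, -1.52 for Piwil2, -1.26 for Stk31 and Nanos3, -1.19 for Msh4 and -1.16 for Dmc1. Differences under 1 in size were -0.99 for Slc25a31, -0.91 for Sycp3, -0.71 for Rec8, -0.70 for Stag3, -0.67 for Mael, -0.66 for Syce1, -0.62 for Ddx4 and -0.60 for Prdm1. The smallest were -0.56 for Rpl10l, -0.50 for Kit, -0.47 for Tex14 and -0.40 for Ddx43, and Dnd1 alone was higher, at 0.75. Cell type and slide cannot be told apart in these differences. Those of Prdm1, Ddx43, Mael, Tex14 and Ddx4 missed the threshold when 1 iPSC array was left out. Prdm1 did so without Tbx3-null replicate 1 or wild-type replicate 1 (adjusted p = 0.0681 and 0.0795). Mael did so without Tbx3-null replicate 2 or wild-type replicate 2 (adjusted p = 0.0805 and 0.0788), and Tex14 without Tbx3-null replicate 2 or wild-type replicate 1 (adjusted p = 0.0577 and 0.0592). Ddx4 did so without wild-type replicate 2 (adjusted p = 0.0646), and Ddx43 without any 1 of the 4 iPSC arrays (adjusted p = 0.0566 to 0.0792).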

How the results depend on the processing

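Counts of genes that fell, with no minimum fold, held within 1.5 times under the alternatives tried, and no called change turned its sign. Leaving out 1 array at a time gave 12 to 14 falls in mESC, 20 to 23 in iPSC and 22 to 26 lower differences, with a lone array in an iPSC group assumed to vary like the other groups. The few rises were less stable: 5 in mESC became 3 in slide row 1 alone and 3 in slide row 2 alone, 4 in iPSC became 0 when the iPSC arrays were fitted alone and ranged over 1 to 4 without 1 array (1 without Tbx3-null replicate 1, which left Syce2), and 1 higher difference ranged over 1 to 2 (2 without Tbx3-null replicate 2). With the replicate block, the counts stayed at 5 rises and 13 falls in mESC, 4 and 22 in iPSC, and 1 and 25 in the difference, and no call of a listed gene changed. Same-numbered arrays correlated at 0.0966, 0.121, 0.102 and 0.0488 in mESC, where not each array correlated best with its own number. In iPSC, with 2 arrays per group, all such correlations must have one size, 0.0251, and differ only in sign. They cannot decide on pairs there. The numbers were not taken as pairs. In mESC, Tbx3-high and Tbx3-low arrays of the same slide row correlated at 0.0366 to 0.19, and those of different rows at -0.177 to -0.0349. The main fit held no term for slide row. With row as a block, 5 genes rose and 14 fell in mESC, and all 18 main calls were kept. Dim genes depended on the signal used: Asz1 in iPSC was -1.12 with normexp background correction and -1.45 with the series table, Msh4 was -0.34 and -0.55, and Slc25a31 was -0.57 and Tdrd7 -0.46 with normexp. The difference for Msh4 did not pass with normexp (-0.38, adjusted p = 0.0734). Averaging a gene's probes gave -4.22 for Brdt and 0.30 for Tdrd5 in iPSC. The median change of all genes in the difference was 0.1 in the scaling used and 0.0244 after quantile normalization, with 25 and 26 genes lower. Signal near background limits Asz1, Tdrd9, Piwil1, Piwil4, Nanos2 and Tdrkh.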
